A study of Homo sapiens with 120 samples.

Results

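DDIT3, which encodes CHOP, and its relatives CEBPA, CEBPB, CEBPD and CEBPG were followed over line, treatment and time in U2OS cells, a human osteosarcoma line. The 5 genes were taken by symbol from the deposited tables of 57665 genes, and all 5 passed the filter on low counts that left 26998 genes for testing. RNA was sequenced from 120 wells in 40 groups of 3. Parental U2OS cells were set beside a derivative, Dmr-PERK, that stably expresses the eIF2α kinase domain of mouse PERK fused to DmrB, a domain that the ligand AP20187 (the dimerizer) brings together in pairs. Each line was left untreated (wells at 0, 4, 8, 16 and 24 h) or given dimerizer at 0.2 nM (the series text's rounded dose), thapsigargin at 100 nM or arsenite at 0.05 mM, for 2, 4, 8, 16 or 24 h. Thapsigargin blocks the calcium pump of the endoplasmic reticulum (ER), and arsenite causes oxidative stress and also damages proteins. The labels give the genotype of all wells as WT, and the sources used here do not give whether the Dmr-PERK line is 1 clone. Per the series text, the doses were matched for phosphorylated eIF2α, and the parental line served to show what the dimerizer does without the construct.

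C/EBP proteins are basic leucine zipper (bZIP) transcription factors that bind DNA as pairs. When eIF2α is phosphorylated, general translation falls while ATF4 protein is made, and ATF4 activates DDIT3. CHOP pairs with other C/EBP proteins and with ATF4, and is known for its part in cell death during prolonged stress. C/EBPβ takes part in inflammatory and differentiation programmes, C/EBPδ in acute-phase responses, and C/EBPα in the differentiation of fat, liver and myeloid cells. C/EBPγ lacks a classical activation domain and pairs with ATF4 and other bZIP proteins.

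On GRCh38.p14 (RefSeq), DDIT3 (ENSG00000175197.11 in the files) is on chromosome 12 from 57516588 to 57520517. CEBPA (ENSG00000245848.2) is on chromosome 19 from 33299934 to 33302534, and CEBPG (ENSG00000153879.8) on the same chromosome from 33373709 to 33382686. CEBPB (ENSG00000172216.5) is on chromosome 20 from 50190583 to 50192690. All 5 genes are protein-coding. In GENCODE 29, DDIT3 overlaps MARS and MBD6 on the opposite strand and AC022506.1 and MIR616 on its own strand. CEBPB overlaps CEBPB-AS1, and CEBPA overlaps AC008738.3 and AC008738.5, all on the opposite strand. The sources used here do not give the strand setting of the counting, so reads of these overlapping genes are not separated with certainty.

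Promoter windows of 300 bases, from 250 before to 50 after a start, are in RefSeq for 4 of the 5 genes (not CEBPD). They are shown for the 3 genes that rose with every treatment in Dmr-PERK cells, because their letters can be read beside those changes. Capitals mark the matches to 6 patterns, searched on both strands: TGATGCAA (a C/EBP-ATF composite core), TGACTCA (AP-1), TGACGTCA (CRE), TGACGCA (CRE-like), TTGCGCAA (a palindromic C/EBP core) and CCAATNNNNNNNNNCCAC (the ER stress element without its last base). The looser patterns TGATGNAA, CCAAT and TGACGT were also searched and are not capitalised. The patterns and stretches shown were chosen after the windows had been read. The first is the 250 bases before a DDIT3 start, GRCh38.p14 chr12:57520518-57520767, minus strand. The second is upstream of the second CEBPG start, chr19:33373896-33374112, plus strand. The third is a stretch of 29 bases upstream of the second CEBPB start, chr20:50190762-50190790, plus strand. Both of these stretches lie within the gene spans given above, and the CEBPG stretch is outside GENCODE 29 exons. The window of the first CEBPG start did not hold TGATGCAA, nor that of the first CEBPB start TGACGCA.
DDIT3: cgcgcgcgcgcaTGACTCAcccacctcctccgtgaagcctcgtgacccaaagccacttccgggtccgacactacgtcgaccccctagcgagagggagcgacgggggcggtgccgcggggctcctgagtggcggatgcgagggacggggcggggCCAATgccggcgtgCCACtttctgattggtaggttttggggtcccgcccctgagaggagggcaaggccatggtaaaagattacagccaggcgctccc
CEBPG: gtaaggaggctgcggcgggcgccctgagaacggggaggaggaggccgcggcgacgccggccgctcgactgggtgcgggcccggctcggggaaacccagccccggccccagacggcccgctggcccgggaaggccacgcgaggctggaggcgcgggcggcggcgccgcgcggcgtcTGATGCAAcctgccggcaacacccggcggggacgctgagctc
CEBPB: aggggccggcgTGACGCAgcggttgctac
The DDIT3 stretch holds TGACTCA and the ER stress element pattern, the CEBPG stretch TGATGCAA, and the CEBPB stretch TGACGCA. Of 35116 windows of this length, 0.866% held TGATGCAA, 4.95% TGACTCA, 1.85% TGACGTCA, 2.47% TGACGCA, 0.151% TTGCGCAA and 0.316% the ER stress element pattern. The looser patterns were in 3.62% (TGATGNAA, which overlaps the composite core), 34.6% (CCAAT, which lies within the ER stress element pattern) and 7.98% (TGACGT, which lies within CRE). The CEBPA window held none of the 9 patterns. A match describes letters and is not evidence of a bound site. Sites more than 250 bases before a start lie outside the windows and were not searched.

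Library totals ran from 12869311 to 56504690 estimated counts, with a median of 22323605. Within groups, libraries correlated with their replicates at a mean r of 0.9864 to 0.9992. Of the 120 libraries 7 stood apart from their groups, all with arsenite (all 3 Parental at 24 h, 2 Dmr-PERK at 4 h and 2 Dmr-PERK at 24 h), and results that change without them are given both ways. Replicates are wells, so p-values measure the spread between wells. Of 9 osteoblast and matrix markers, SP7 and IBSP were under 1 CPM (counts per 1e+06 of the scaled library) in every library, while the list summed to 1848 to 2358 CPM in untreated Dmr-PERK and 4829 to 5537 CPM in untreated Parental wells. In the same order it summed with dimerizer to 826.8 to 2146 and 4798 to 5710 CPM, with thapsigargin to 514.0 to 1958 and 1800 to 3688 CPM, and with arsenite to 1572 to 2407 and 2606 to 4502 CPM. Markers of blood cells (8 genes, among them LYZ and MPO under 1 CPM in every library) summed to 1.43 to 3.65 CPM over untreated wells of both lines and to at most 29.4 CPM with arsenite. Adipocyte markers (6 genes, with ADIPOQ, FABP4 and LEP under 1 CPM throughout) summed to 13.5 to 28.9 CPM untreated, and hepatocyte and epithelial markers (8 genes, with TTR and KRT19 under 1 CPM throughout) to 247.2 to 758.3 CPM. The part of these lists in the results was not tested.

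Untreated cells of both lines carried little DDIT3 after the first hours, and Dmr-PERK cells carried less CEBPB, CEBPG and CEBPD than Parental cells. DDIT3 stood at 29.3, 26.7 and 27.4 CPM in the untreated Dmr-PERK wells at 0 h and at 41.8, 35.1 and 36.6 CPM in the Parental wells. By 8 h it was at 7.62, 8.05 and 7.48 CPM in Dmr-PERK and 6.38, 7.3 and 6.96 CPM in Parental wells. The 0 h wells lay above all later untreated wells in both lines.

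Change over the untreated times was called by edgeR's quasi-likelihood F-test (Benjamini-Hochberg adjusted p under 0.05, the threshold used throughout) for all 5 genes in Dmr-PERK and for 4 of 5 in Parental wells. Of all genes tested 53.4% and 55.4% were called. CEBPA in Parental wells was the exception (adjusted p = 0.225). CEBPD, an acute-phase regulator, stepped down later than DDIT3. Untreated Dmr-PERK wells held 8.97, 8.05 and 7.42 CPM at 0 h, 14.7, 15.5 and 17.5 CPM at 4 h and 2.45, 3.32 and 3.02 CPM at 8 h, so their 4 h level was above that of 0 h. Parental wells held 18.4, 15.8 and 15.2 CPM at 0 h and went from 16.7, 18.4 and 18.4 CPM at 4 h to 4.57, 4.53 and 4.64 CPM at 8 h. The wells of 4 and 8 h did not overlap in either line. CEBPB went over the same step from a mean of 60.2 ± 1.2 to 40.4 ± 2.14 CPM in Dmr-PERK and from 117.5 ± 3.37 to 67.6 ± 0.297 CPM in Parental wells (SD, n = 3).

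Averaged over the 5 untreated times, 3 of the 5 genes were lower in Dmr-PERK than in Parental cells and none was higher, beside 62.5% of all genes called. The log2 difference was -1.0 ± 0.03 for CEBPB (± is an approximate standard error from the fit wherever it follows a log2 value), -0.73 ± 0.02 for CEBPG and -0.70 ± 0.06 for CEBPD. DDIT3 differed by -0.10 ± 0.05 (edgeR adjusted p = 0.071, 95% interval -0.19 to -0.00) and CEBPA by -0.03 ± 0.08. The wells of CEBPG show the gap plainly: from 4 to 24 h the 12 untreated Dmr-PERK wells ran from 32.1 to 41.7 CPM and the 12 Parental wells from 56.1 to 66.7 CPM.

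The dimerizer raised DDIT3 in Dmr-PERK cells to a plateau. Wells with dimerizer held 87.3, 103.1 and 100.8 CPM at 2 h, 82.6, 85.5 and 84.3 at 4 h, 77.7, 78.4 and 81.2 at 8 h, 76.2, 80.7 and 73.0 at 16 h, and 83.3, 92.1 and 89.4 at 24 h. Every one lay above every untreated Dmr-PERK well, which from 4 to 24 h ran from 7.42 to 11.6 CPM. The log2 change against untreated wells of the same time, averaged over 4 to 24 h, was 3.15 ± 0.04 (8.87-fold). The 4 times gave 2.98, 3.36, 3.23 and 3.04, and a change of the effect over these times was not called (edgeR adjusted p = 0.0537).

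The wells analysed here include no untreated ones at 2 h, so that time was set against 0 h, when DDIT3 was still high. Against 0 h the DDIT3 change at 2 h of dimerizer was 1.80 ± 0.07, and against untreated wells at 4 h it was 3.18 ± 0.08. In Parental cells the same choice moved the 2 h value from 0.24 ± 0.07, not called, to 1.82 ± 0.08, called. Parental wells with dimerizer at 2 h held 47.4, 43.4 and 45.2 CPM, above the 0 h wells and far above those at 4 h. For this Parental value a treatment effect and the drift of untreated wells cannot be told apart, whereas the Dmr-PERK wells at 2 h lay above the untreated wells of both 0 and 4 h and were called against each.

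**Figure D1:**
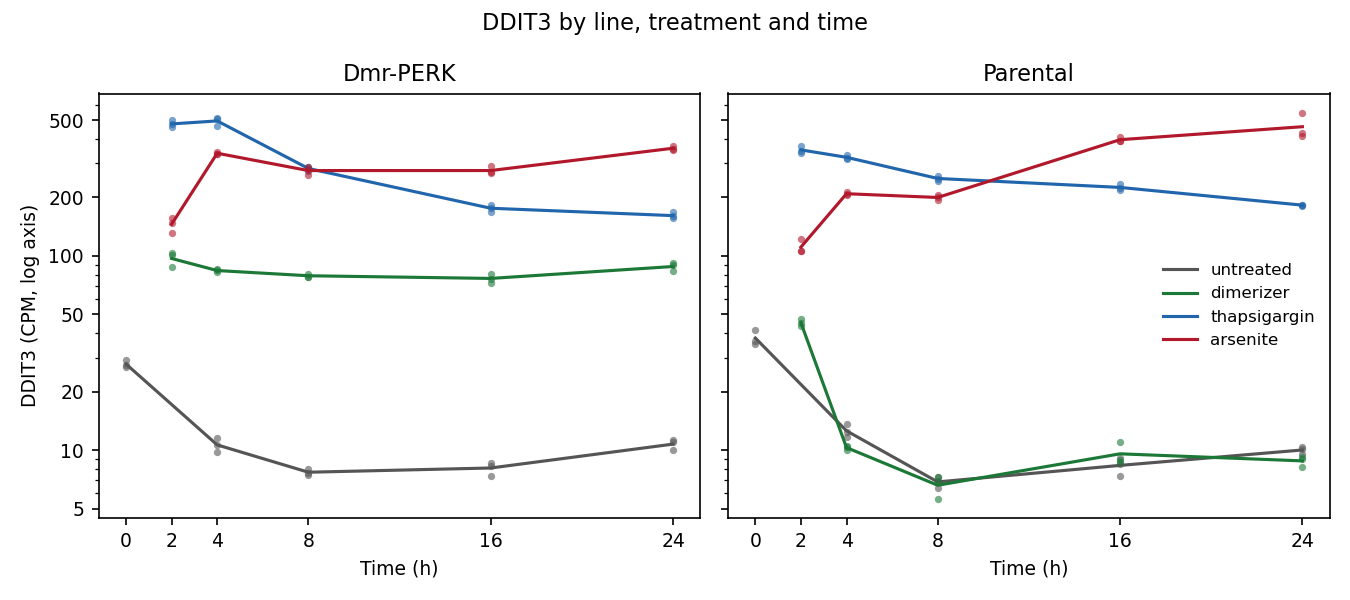
DDIT3 in CPM (log axis) against time in hours, Dmr-PERK on the left and Parental on the right. Points are wells and lines join group means (n = 3). In Dmr-PERK cells all 3 treatments stand above the untreated wells, while in Parental cells the dimerizer wells from 4 h on, at 5.65 to 11.1 CPM, stay near the untreated ones (6.38 to 13.7 CPM).

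CEBPB and CEBPG rose with the dimerizer beside DDIT3. CEBPB was at 38.0, 42.2 and 41.1 CPM in untreated and 142.7, 135.1 and 139.3 CPM in dimerizer wells of Dmr-PERK cells at 8 h. CEBPG, the partner of ATF4, was at 35.4, 36.6 and 34.9 CPM and at 131.9, 137.9 and 141.1 CPM in the same wells. Neither pair of groups overlapped. Averaged over 4 to 24 h the log2 change was 1.73 ± 0.03 for CEBPB (3.32-fold) and 1.85 ± 0.03 for CEBPG (3.61-fold). Both effects changed over time (edgeR adjusted p = 1.56e-08 and 1.66e-05), from 1.37 and 1.60 at 4 h to 1.80 and 1.99 at 24 h, with CEBPB at 1.98 at 16 h. For these genes, too, 2 h was early, with 0.82 ± 0.06 and 0.56 ± 0.06.

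CEBPD and CEBPA did not share that rise. CEBPD had a mean change of 0.02 ± 0.08 with dimerizer, which averages a fall of -0.49 ± 0.10 at 4 h (10.1, 13.2 and 10.9 CPM, below the untreated wells of 4 h and above those of 0 h) and a value of 0.43 ± 0.18 at 24 h, both called. The 24 h call was lost whichever replicate was left out of every group (0.31 to 0.60, adjusted p 0.0549 to 0.145), and the 4 h call on log2(TPM + 0.1) with limma (-0.37). Its wells at 24 h ran from 3.17 to 4.04 CPM with dimerizer and from 1.83 to 3.73 CPM untreated, so the groups overlapped. CEBPA was rare, at 1.52 to 2.54 CPM with dimerizer and 1.19 to 2.94 CPM untreated over 4 to 24 h, and its mean change of 0.17 ± 0.09 was not called. At 2 h CEBPA was called higher, by 0.55 ± 0.18 against 0 h, but without replicate 3 of every group it was 0.31 (adjusted p = 0.445), and the value against untreated wells at 4 h was -0.05 ± 0.16.

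Of the 5 genes, 4, 4, 3, 3 and 4 were called at 2, 4, 8, 16 and 24 h of dimerizer in Dmr-PERK cells, where 17.7%, 30.2%, 37.0%, 43.2% and 48.1% of all genes were called. For the mean of 4 to 24 h, 3 members were called, all higher, beside 55.2% of all genes, and 3 showed a change of effect over time, beside 42.1%. A call alone is thus common in these comparisons, and the sizes of the changes carry the description: the median log2 change of all genes was -0.03.

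Parental cells with dimerizer gave a different picture. DDIT3 stood at 10.4, 10.1 and 10.5 CPM at 4 h against 13.7, 11.7 and 12.4 CPM untreated, and at 24 h at 8.99, 9.29 and 8.2 CPM against 10.2, 9.53 and 10.4 CPM. The wells did not overlap at these 2 times and did at 8 and 16 h, and over 4 to 24 h the mean change was -0.09 ± 0.06, not called. CEBPB was called lower at 4 h by -0.21 ± 0.06, from 118.5, 113.7 and 120.2 CPM to 103.6, 101.6 and 100.6 CPM. That was the 1 call among the 5 genes at the 5 times, and it was lost without replicate 1 or without replicate 2 of every group (0 of 5 called). The share of all genes called was 0.178% at 2 h, 7.52% at 4 h, 0.0% at 8 h, 0.0% at 16 h and 0.0% at 24 h.

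The 0 counts in Parental cells were also seen by other tools, with exceptions. At 2 h edgeR called 0 of the 5 genes, although DDIT3 and CEBPG (2 genes) had a p under 0.05 before adjustment, while DESeq2 called 1 and limma 0. At 8, 16 and 24 h edgeR called 0 genes of any kind, and 1115, 1369 and 1399 had a p under 0.05 before adjustment. Among all genes 2, 0 and 16 were called there by DESeq2, and 0, 0 and 0 by limma. Of the 5 genes, 0, 0 and 2 had such a p with edgeR at those times, and neither DESeq2 nor limma called any. For the mean of 4 to 24 h edgeR called 0 of the 5 genes beside 0.582% of all genes, with CEBPB and CEBPD (2 genes) under 0.05 before adjustment, and DESeq2 called 1 and limma 0. For change over time edgeR called 0 beside 3.76%, with DDIT3 (1 gene) under 0.05 before adjustment, and limma called 1.

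The difference between the lines was tested itself. The dimerizer effect was larger in Dmr-PERK than in Parental cells by 3.24 ± 0.07 log2 units for DDIT3, 1.85 ± 0.04 for CEBPG and 1.83 ± 0.04 for CEBPB. These were 3 calls of 5, all upward, beside 47.0% of all genes. CEBPD differed by -0.16 ± 0.10 (95% interval -0.36 to 0.05) and CEBPA by 0.05 ± 0.12 (-0.20 to 0.30), neither called.

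Thapsigargin drove DDIT3 highest of the treatments at 2 and 4 h in Dmr-PERK cells, after which the level fell. Its Dmr-PERK wells held 475.1, 459.9 and 498.5 CPM at 2 h, 508.0, 510.1 and 467.4 at 4 h, 274.7, 286.4 and 284.5 at 8 h, 182.6, 176.4 and 169.0 at 16 h, and 159.8, 167.8 and 156.2 at 24 h. In Parental wells it held 345.9, 367.8 and 340.1 CPM at 2 h and 183.8, 182.6 and 181.2 CPM at 24 h. Every thapsigargin well lay above every untreated well of its line.

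Averaged over 4 to 24 h the DDIT3 change with thapsigargin was 4.76 ± 0.04 in Dmr-PERK (27.2-fold) and 4.69 ± 0.04 in Parental cells (25.9-fold). The lines' effects differed by 0.07 ± 0.06, with a 95% interval of -0.05 to 0.20 (not called). That difference averages a larger effect in Dmr-PERK cells at 4 h and a larger one in Parental cells at 24 h. The lines were not tested against each other at single times. In both lines the effect changed over 4 to 24 h (edgeR adjusted p = 5.3e-22 and 9e-10). In Dmr-PERK cells it went from 5.53 at 4 h to 3.90 at 24 h, and in Parental cells from 4.65 to 5.18 at 8 h and then to 4.18.

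CEBPB and CEBPG also rose with thapsigargin in both lines. CEBPB changed by 1.91 ± 0.03 in Dmr-PERK and 1.55 ± 0.03 in Parental cells, a difference between lines of 0.36 ± 0.04 that was called. CEBPG changed by 1.99 ± 0.02 and 1.90 ± 0.02, and its smaller difference of 0.09 ± 0.03 was called too (edgeR adjusted p = 0.0367). That call was lost without replicate 1 of every group (0.04, adjusted p = 0.56), without replicate 2 (0.10, 0.164) and without the libraries that stood apart (0.07, 0.146). Both genes ended at higher levels in Parental cells, where 24 h wells held 205.2, 212.9 and 213.2 CPM of CEBPB against 152.9, 153.4 and 144.9 CPM in Dmr-PERK wells.

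CEBPD fell with thapsigargin by -0.74 ± 0.07 in Parental cells. In Dmr-PERK cells its mean change was -0.20 ± 0.08 (edgeR adjusted p = 0.0308), a call that was lost without replicate 1 (-0.24, adjusted p = 0.0573) or replicate 2 (-0.13, 0.357) of every group. The lines' difference of 0.54 ± 0.11 was called. The Dmr-PERK value averages opposite times: -1.20 ± 0.10 at 4 h (6.3, 7.23 and 7.39 CPM against 14.7, 15.5 and 17.5 untreated) and 0.49 ± 0.17 at 24 h. The 4 h wells with thapsigargin lay only just below the untreated wells of 0 h, at 7.42 to 8.97 CPM. At 2 h of thapsigargin the wells ran from 7.15 to 7.67 CPM. The 24 h call was lost without replicate 1 or replicate 3 of every group, and leaving out each replicate gave 0.25 to 0.76 (adjusted p up to 0.258). In Parental cells the fall was called at 4, 8, 16 and 24 h and ran from -0.59 to -0.96. CEBPA had mean changes of -0.11 ± 0.09 and -0.04 ± 0.09, not called, with 1 call at a single time (-0.62 ± 0.16 at 4 h in Dmr-PERK cells). There thapsigargin wells were at 1.77 CPM and untreated wells at 2.73 CPM, while untreated wells of 0 h were at 1.81 CPM.

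With thapsigargin, 3, 5, 3, 3 and 4 of the 5 genes were called at the 5 times in Dmr-PERK cells, beside 33.2%, 39.6%, 49.4%, 51.5% and 55.0% of all genes. In Parental cells the counts were 3, 4, 4, 4 and 4, beside 29.2%, 40.6%, 49.7%, 56.2% and 54.6%. The mean of 4 to 24 h gave 4 calls in each line, 3 higher and 1 lower, beside 63.0% and 65.1%. Change over time was called for 5 genes in Dmr-PERK and 3 in Parental cells, beside 52.2% and 49.9%, and 3 genes differed between lines, beside 25.7%.

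Arsenite raised DDIT3 less than thapsigargin at 2 h, and by mean CPM the level was highest at 24 h in both lines, whereas by mean TPM (transcripts per 1e+06, scaled by length) it was highest at 4 h in Dmr-PERK (634.9 TPM, and 560.6 TPM at 24 h) and at 16 h in Parental cells (650.4 TPM, and 624.6 TPM at 24 h). Dmr-PERK wells held 132.0, 148.4 and 156.5 CPM at 2 h, 336.6, 340.9 and 335.5 at 4 h, 286.2, 277.4 and 261.3 at 8 h, 289.0, 265.7 and 270.5 at 16 h, and 348.9, 356.7 and 369.4 at 24 h. Their level thus dipped at 8 and 16 h, with no overlap with the wells of 4 or 24 h. Parental wells held 106.0, 105.7 and 121.6 CPM at 2 h, 212.5, 205.6 and 209.0 at 4 h, 390.2, 408.4 and 390.6 at 16 h, and 412.7, 429.0 and 545.2 at 24 h. None overlapped the untreated wells of its line, and the highest single well, replicate 3 of Parental at 24 h, is 1 of the libraries that stood apart.

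The mean DDIT3 change with arsenite was 5.07 ± 0.04 in Dmr-PERK (33.5-fold) and 5.00 ± 0.04 in Parental cells (31.9-fold), and the lines differed by 0.07 ± 0.06 (95% interval -0.05 to 0.20, not called). These values are relative to a median of all genes of 0.12 and 0.09. That median depends on scaling: it was 0.22 and 0.21 with size factors by relative log expression (RLE) and -0.06 and -0.16 on log2(TPM + 0.1). In Dmr-PERK cells the DDIT3 effect stayed between 4.98 and 5.16 from 4 to 24 h (change over time edgeR adjusted p = 0.652). In Parental cells it went from 4.03 at 4 h to 5.57 at 16 h and 5.52 at 24 h (adjusted p = 1.38e-24), and the 24 h value without the libraries that stood apart was 5.43. The lines' difference thus averages a larger effect in Dmr-PERK cells at 4 h and a larger one in Parental cells at 16 and 24 h.

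In Parental cells CEBPB followed a late course with arsenite and CEBPG an early one. CEBPB in Parental wells went from 143.7, 146.4 and 158.5 CPM at 2 h to 547.4, 575.2 and 550.1 CPM at 24 h, its highest group of the 40. CEBPG in the same line was at 291.5, 292.6 and 295.4 CPM at 4 h, its own highest group, and at 161.1, 164.4 and 173.4 CPM at 24 h. The CEBPB change in Parental cells rose from 1.10 at 4 h to 2.83 at 24 h, and the CEBPG change went from 2.25 to 1.44. By mean TPM, Parental CEBPB was at 192.1, 234.1, 247.7 and 307.7 at 4, 8, 16 and 24 h. Untreated wells were at 94.7, 55.8, 60.9 and 66.6 TPM, so by TPM most of the rise over them came by 8 h. Parental CEBPG wells from 4 to 24 h ran from 41.6 to 103.4 TPM with arsenite and from 21.2 to 24.6 TPM untreated. In Dmr-PERK cells the courses were less distinct. There the CEBPB change was 1.30, 2.49, 2.16 and 2.65 at 4, 8, 16 and 24 h. The CEBPG change was 2.07, 2.40, 1.78 and 1.61 at these times, highest at 8 h. By mean TPM the CEBPB level in Dmr-PERK cells was also highest at 8 h, at 162.7 TPM, and was 154.6 TPM at 24 h. Averaged over time, CEBPB rose by 2.13 ± 0.03 in Parental and 2.15 ± 0.03 in Dmr-PERK cells, and CEBPG by 1.82 ± 0.02 and 1.96 ± 0.03.

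CEBPD fell with arsenite in both lines. At 4 h it was at 2.93, 2.58 and 3.3 CPM in Dmr-PERK and 2.96, 2.8 and 3.53 CPM in Parental wells, all below the untreated wells. The mean change was -1.32 ± 0.10 and -1.0 ± 0.08. The call for their difference of -0.32 ± 0.13 (edgeR adjusted p = 0.041) was lost without the libraries that stood apart (-0.26 ± 0.14, adjusted p = 0.158) and whichever replicate was left out of every group (-0.41 to -0.25, adjusted p 0.0556 to 0.282). In Parental cells at 24 h CEBPD was called higher by 0.40 ± 0.14, with wells at 5.63, 6.05 and 8.08 CPM against 4.95, 4.45 and 5.49 untreated. That call was lost without the libraries that stood apart (0.29 ± 0.16, adjusted p = 0.104) and without replicate 2 or 3 of every group (adjusted p up to 0.0599), and on log2(TPM + 0.1) the value was -0.22. In Dmr-PERK cells at 24 h the change of -0.71 lost its call without replicate 2 of every group (-0.48, adjusted p = 0.119).

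CEBPA had its highest group of the 40 after 24 h of arsenite in Parental cells, and its next in Dmr-PERK cells. Parental wells held 6.08, 6.48 and 6.02 CPM against 1.67, 1.7 and 1.89 CPM untreated, and Dmr-PERK wells 3.68, 4.06 and 4.04 CPM against 1.93, 1.97 and 1.47 CPM. The changes were 1.84 ± 0.14 and 1.13 ± 0.16, and neither set of groups overlapped. Earlier the gene was lower, by -0.51 ± 0.18 at 4 h in Dmr-PERK cells (-0.29 ± 0.24, adjusted p = 0.364, without the libraries that stood apart) and by -0.69 ± 0.23 at 8 h in Parental cells. Without replicate 3 of every group these values were -0.46 and -0.49 and neither was called (adjusted p = 0.0816 and 0.176). At 1.05 ± 0.35 CPM in that last group (SD, n = 3), CEBPA rests on few counts. The untreated Dmr-PERK wells of 4 h were the highest untreated CEBPA group, at 2.73 CPM against 1.81 CPM at 0 h. Arsenite wells at 4 h were at 1.91 CPM. The mean CEBPA change in Parental cells, 0.26 ± 0.09, was called, but it was 0.18 (adjusted p = 0.188) without replicate 1 of every group and -0.03 on log2(TPM + 0.1).

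With arsenite, 4, 5, 4, 5 and 5 of the 5 genes were called at the 5 times in Dmr-PERK cells, beside 19.9%, 49.1%, 67.4%, 78.8% and 81.5% of all genes. In Parental cells 4, 5, 5, 5 and 5 were called, beside 18.4%, 49.2%, 60.1%, 78.8% and 80.5%. The mean gave 5 calls in each line, 4 higher and 1 lower, beside 83.6% and 82.1%. Change over time was called for 4 genes in Dmr-PERK and 5 in Parental cells, beside 71.2% and 73.1%. Between lines 2 genes differed (CEBPG by 0.15 ± 0.04 and CEBPD), beside 42.2%, and without replicate 1 of every group the CEBPG difference was 0.08 and not called (adjusted p = 0.125). Of the single-time calls in Parental cells, CEBPB at 2 h and CEBPA at 4, 8 and 16 h were lost on leaving out at least 1 replicate of every group.

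**Figure D2:**
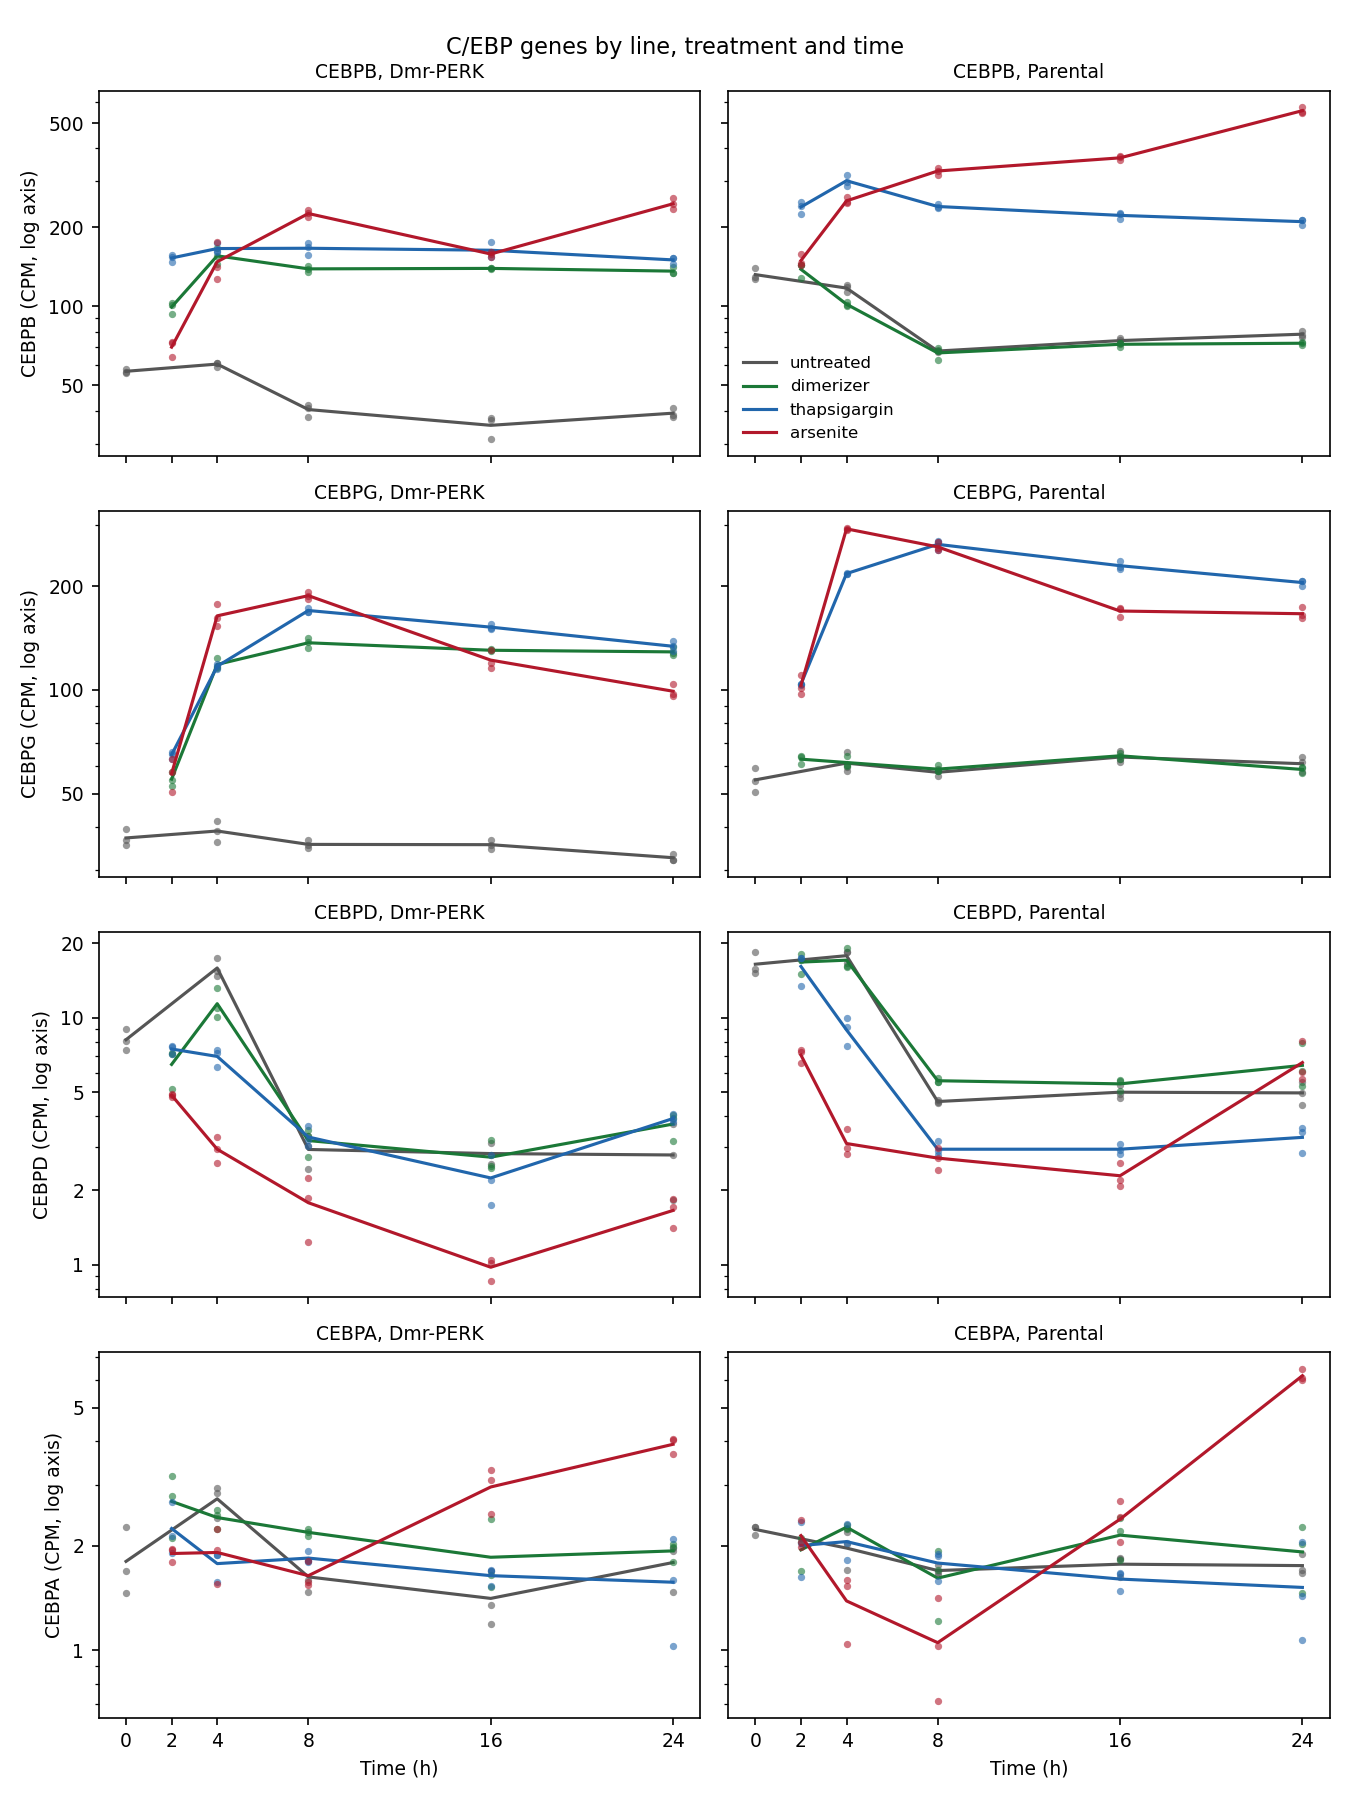
CEBPB, CEBPG, CEBPD and CEBPA in CPM (log axes, shared within a row) against time in hours, Dmr-PERK on the left and Parental on the right. Points are wells and lines join group means (n = 3). CEBPB and CEBPG stand above untreated wells with all treatments in Dmr-PERK cells, CEBPD drops in untreated wells between 4 and 8 h, and CEBPA is highest with arsenite at 24 h.

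**Figure D3:**
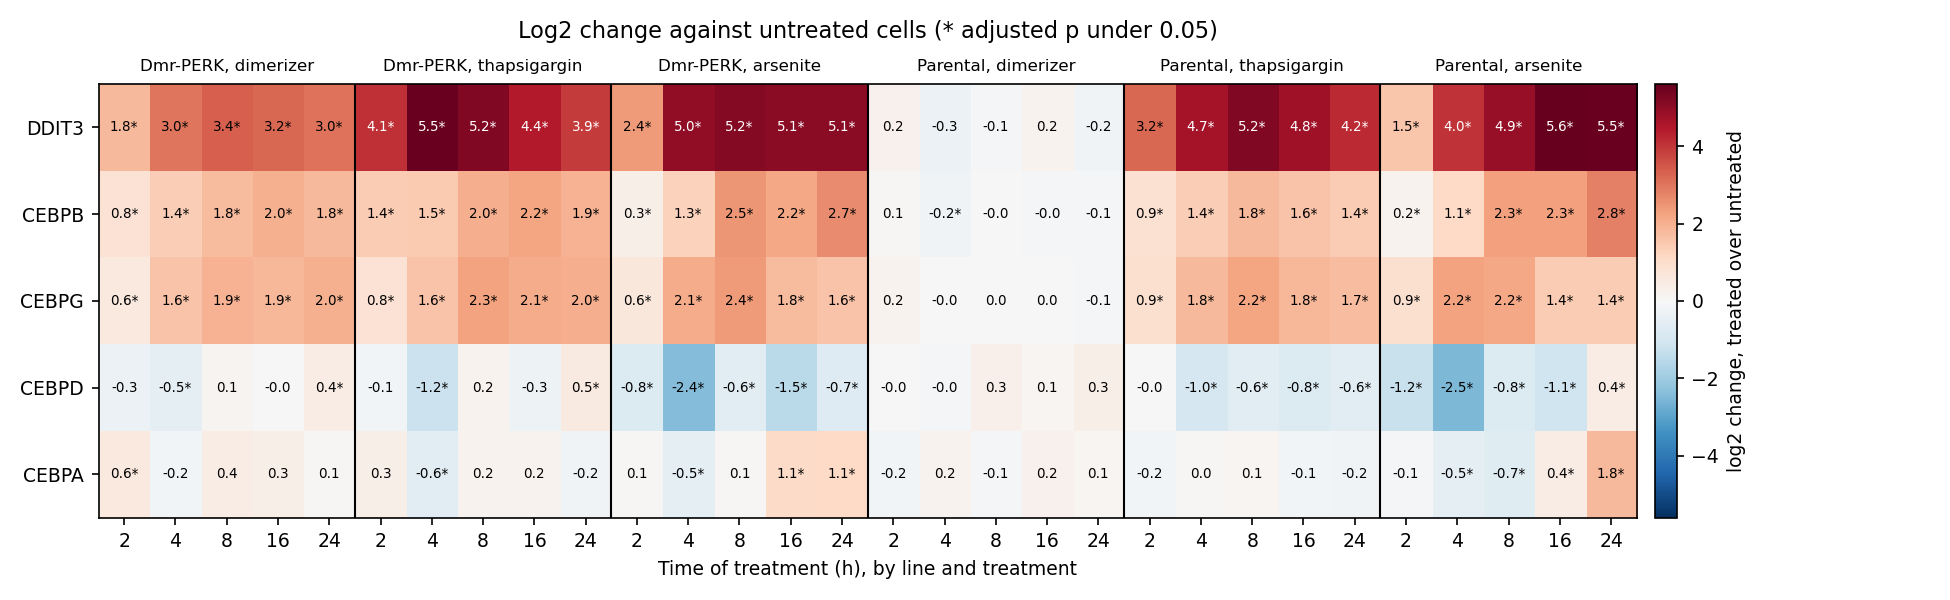
Log2 change of the 5 genes against the matching untreated wells (0 h for 2 h), for 30 comparisons. Red is higher, blue lower, and an asterisk marks an edgeR adjusted p under 0.05. DDIT3, CEBPB and CEBPG are called higher in every comparison other than dimerizer in Parental cells.

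Set directly against each other in Dmr-PERK cells over 2 to 24 h, dimerizer wells held less DDIT3 than those of either other treatment. It was lower than with thapsigargin by -1.75 ± 0.03 and lower than with arsenite by -1.65 ± 0.03 log2 units. CEBPB differed by -0.27 ± 0.02 and -0.23 ± 0.02, and CEBPG by -0.16 ± 0.02 and -0.10 ± 0.02, all called. The values against arsenite average opposite times. CEBPB was at 99.5 CPM with dimerizer and 69.9 CPM with arsenite at 2 h, and at 136.3 and 246.2 CPM at 24 h. CEBPG was at 118.5 and 164.0 CPM at 4 h, and at 128.9 and 99.1 CPM at 24 h. On log2(TPM + 1) the CEBPG value against arsenite changed sign, to 0.10, and the CEBPB value was -0.03 and not called. CEBPD was higher with dimerizer than with arsenite by 1.15 ± 0.08 and did not differ detectably from thapsigargin (0.14 ± 0.07, 95% interval -0.00 to 0.27). CEBPA was higher with dimerizer than with thapsigargin by 0.27 ± 0.08, a call lost without replicate 3 of every group (0.23, adjusted p = 0.0679). It differed from arsenite by -0.12 ± 0.08, not called, although without the libraries that stood apart the difference was -0.18 ± 0.09 and called (adjusted p = 0.0478). This value, too, averages opposite times. CEBPA was at 2.69 CPM with dimerizer and 1.9 CPM with arsenite at 2 h, and at 1.93 and 3.93 CPM at 24 h. On log2(TPM + 1) the CEBPA difference changed sign, to 0.055.

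Thapsigargin and arsenite differed in DDIT3 in opposite directions at 2 and 24 h. In Dmr-PERK cells mean DDIT3 was 477.9 CPM with thapsigargin and 145.6 CPM with arsenite at 2 h. At 24 h it was 161.3 and 358.3 CPM. In Parental cells it was 351.3 and 111.1 CPM at 2 h, and 182.5 and 462.3 CPM at 24 h. Averaged over 2 to 24 h the log2 difference was 0.10 ± 0.02 in Dmr-PERK and 0.09 ± 0.02 in Parental cells, called in each. With RLE size factors it was -0.00 and -0.01, while on log2(TPM + 1) it was 0.35 and 0.37. The Parental call was lost without replicate 2 of every group (adjusted p = 0.0606). The mean CEBPG differences were 0.06 ± 0.02 and 0.07 ± 0.02, and -0.04 and -0.04 with RLE size factors. They also average opposite times. In Dmr-PERK cells CEBPG was at 117.1 CPM with thapsigargin and 164.0 CPM with arsenite at 4 h, and at 133.8 and 99.1 CPM at 24 h. In Parental cells it was at 217.4 and 293.2 CPM at 4 h, and at 204.8 and 166.3 CPM at 24 h. In Dmr-PERK cells the CEBPG call was also lost without the libraries that stood apart (0.04 ± 0.02, adjusted p = 0.072) and without replicate 1 or 2 of every group, and in Parental cells without replicate 2 (adjusted p = 0.073). On log2(TPM + 1) the CEBPG values were 0.29 and 0.33. CEBPD was higher with thapsigargin by 1.02 ± 0.08 and 0.45 ± 0.08, and CEBPA lower by -0.39 ± 0.08 and -0.26 ± 0.09. The Parental CEBPD value averages 16.2 CPM with thapsigargin and 7.07 CPM with arsenite at 2 h with 3.28 and 6.59 CPM at 24 h. CEBPA in Parental cells was at 1.78 and 1.05 CPM at 8 h, and at 1.52 and 6.19 CPM at 24 h. In Dmr-PERK cells CEBPA was at 2.24 and 1.9 CPM at 2 h, with overlapping wells, and at 1.57 and 3.93 CPM at 24 h. Both CEBPA calls were lost on log2(TPM + 1) (-0.08 and -0.05), and the Parental one without replicate 1 of every group (-0.12, adjusted p = 0.352). CEBPB differed by -0.33 ± 0.02 in Parental cells and by 0.04 ± 0.02, not called, in Dmr-PERK cells, and by -0.06 and 0.28 on log2(TPM + 1). Its values average opposite times too. At 2 h Dmr-PERK cells held 153.0 CPM with thapsigargin and 69.9 CPM with arsenite, and at 24 h 150.4 and 246.2 CPM. Parental cells held 239.3 and 149.5 CPM at 2 h, and 210.4 and 557.6 CPM at 24 h.

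In these direct comparisons 4 of the 5 genes were called for dimerizer against thapsigargin, beside 47.1% of all genes, and 4 for dimerizer against arsenite, beside 80.4%. For thapsigargin against arsenite 4 were called in Dmr-PERK and 5 in Parental cells, beside 80.8% and 79.2%. These comparisons and those above share treated wells, so their values are not independent.

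The makeup of the family's messages shifted with these changes. TPM values are scaled by length and so allow levels of different genes to be set side by side. In untreated Dmr-PERK wells at 8 h CEBPB made up 51.5% of the 5 genes' summed TPM, DDIT3 23.0%, CEBPG 20.7%, CEBPD 3.3% and CEBPA 1.5%. With dimerizer at 8 h DDIT3 made up 48.5%, CEBPB 34.8% and CEBPG 15.7%. With thapsigargin at 4 h DDIT3 alone was 84.4%, and the sum was 1266 ± 40 TPM against 95.1 ± 0.539 TPM in untreated wells (SD, n = 3). From 4 to 24 h the DDIT3 share was 49.1 ± 2.01% with dimerizer, 71.8 ± 8.5% with thapsigargin and 74.4 ± 4.08% with arsenite (SD over 12 wells, change with time included). In Parental cells it was 15.2 ± 1.87%, 62.4 ± 2.49% and 60.0 ± 6.87%.

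**Figure D4:**
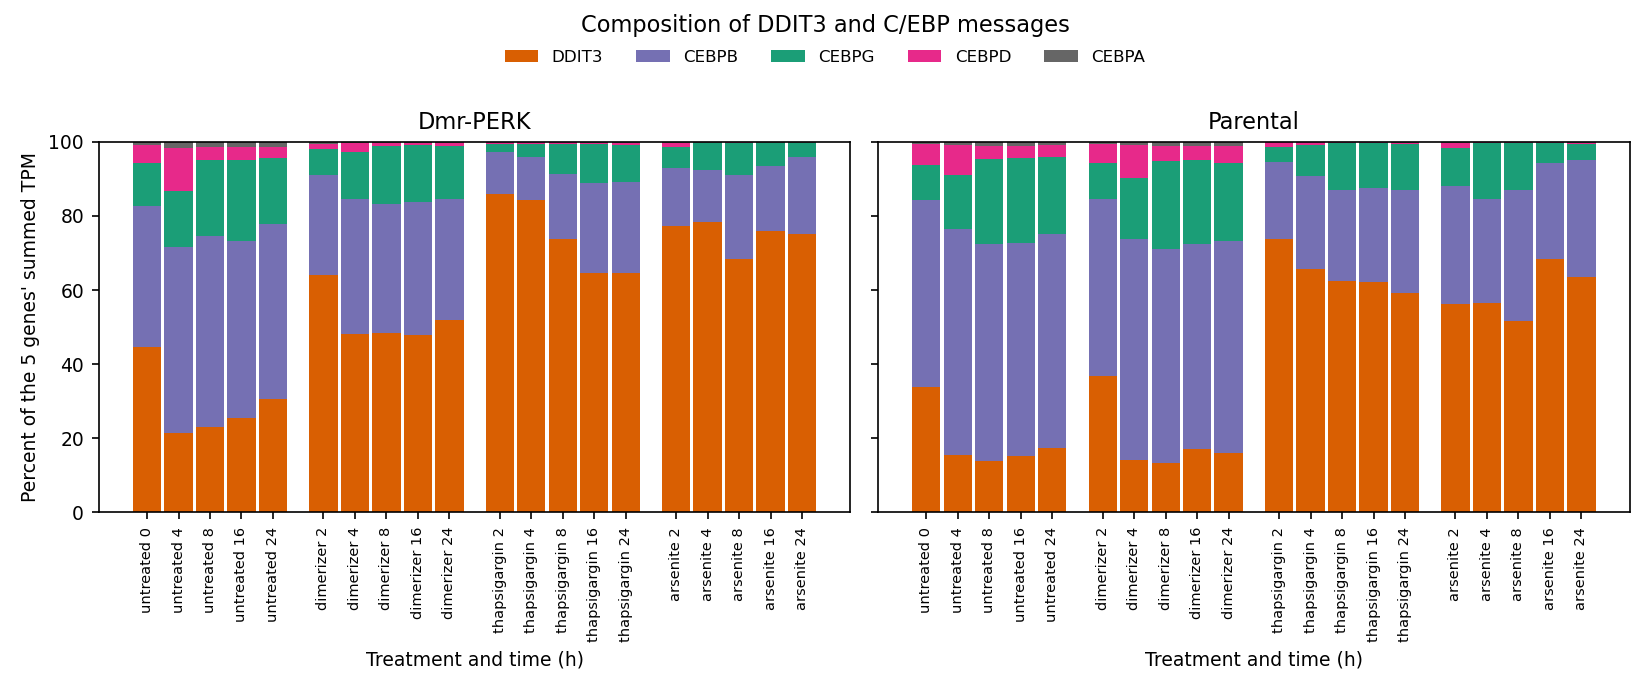
Percent of the 5 genes' summed TPM held by each gene, as the mean of 3 wells, for each treatment and time in hours, Dmr-PERK on the left and Parental on the right. DDIT3 takes 84.4% with thapsigargin at 4 h in Dmr-PERK cells, and CEBPB is the largest share in untreated wells from 4 h on.

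Ordered by mean CPM over the 40 groups, DDIT3 spanned 74.8-fold, from 495.2 CPM (Dmr-PERK, thapsigargin, 4 h) to 6.62 CPM (Parental, dimerizer, 8 h). Of the 39 neighbours in that order 21 had overlapping wells, among them the top 3 groups. CEBPD spanned 18.2-fold, from 17.8 CPM (Parental, untreated, 4 h) to 0.98 CPM (Dmr-PERK, arsenite, 16 h), with 34 overlapping neighbours. CEBPB spanned 15.8-fold, down to 35.2 CPM (Dmr-PERK, untreated, 16 h), with 25 overlaps, and its top 4 groups were all separate. CEBPG spanned 9.0-fold, down to 32.6 CPM (Dmr-PERK, untreated, 24 h), with 28 overlaps. CEBPA spanned 5.89-fold with 37 overlaps, so most of its order is not resolved.

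Across the 40 group means of log2(CPM + 1), the patterns of CEBPB and CEBPG were most alike among the 5 genes (r = 0.864), followed by DDIT3 and CEBPB (0.836) and DDIT3 and CEBPG (0.763). CEBPD ran against CEBPG (-0.394). These are descriptions over groups that share lines and treatments. Among 15280 genes with at least 5 CPM in their highest group, those most like DDIT3 were BRSK1 (r = 0.932), XBP1 (0.931), MYNN (0.917) and SCYL2 (0.913). XBP1 encodes a bZIP factor of the unfolded protein response.

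The nearest patterns to CEBPG were MTHFD2 (r = 0.949), a mitochondrial enzyme of one-carbon metabolism, ROCK1P1 (0.936), DUX4L26 (0.935) and LINC01518 (0.922), and the same 4 genes led by rank correlation. Those nearest to CEBPB were ERN1 (0.905), which encodes the ER stress sensor IRE1α, BMS1P8 (0.905), ZNF562 (0.894) and RP11-259K5.2 (0.883). For CEBPD they were CCDC71L (0.907), RP1-102K2.8 (0.869), CSF1 (0.857) and CSF2 (0.853), the last 2 being myeloid growth factors. For CEBPA they were MED6 (0.854), MYLIP (0.838), RASD1 (0.83) and RP1-69M21.2 (0.823), and none of them was among the 4 highest by rank correlation. Pseudogenes such as ROCK1P1 can share reads with their parent genes.

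Genes around the family were read from lists, all by the mean of 4 to 24 h, for which 55.2%, 63.0% and 83.6% of all genes were called with dimerizer, thapsigargin and arsenite in Dmr-PERK cells. Of 15 genes known as CHOP or ATF4 targets, 12 were higher and 3 lower with dimerizer in Dmr-PERK cells (median log2 change 2.26, all genes -0.03), 13 higher and 2 lower with thapsigargin (2.07, all genes 0.0), and 12 higher and 3 lower with arsenite (2.32, all genes 0.12). In Parental cells edgeR called 0 with dimerizer (2 had a p under 0.05 before adjustment, DESeq2 called 1 and limma 0). Only 0.582% of all genes were called there, a share that also stands beside the Parental dimerizer counts of the lists below. With thapsigargin 14 were higher and 1 lower in Parental cells, and with arsenite 13 and 2, beside 65.1% and 82.1% of all genes. TRIB3, a pseudokinase that CHOP induces, changed by 3.46 ± 0.03, 3.70 ± 0.03 and 4.82 ± 0.04 with dimerizer, thapsigargin and arsenite in Dmr-PERK cells. DDIT4, an inhibitor of mTORC1 signalling, changed by 3.32 ± 0.04, 2.64 ± 0.04 and 2.32 ± 0.04, and ASNS, the asparagine synthetase, by 2.32 ± 0.02, 2.07 ± 0.02 and 1.80 ± 0.02.

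Of 15 bZIP partners and upstream factors, 11 were higher and 2 lower with dimerizer in Dmr-PERK cells (median 0.25), 10 and 3 with thapsigargin (0.34), and 11 and 2 with arsenite (1.33). ATF4 changed by 1.06 ± 0.02, 1.12 ± 0.02 and 1.60 ± 0.02 in that order. NFIL3, a bZIP repressor, changed by 2.00 ± 0.04, 2.56 ± 0.04 and 2.45 ± 0.04, and XBP1 by 1.52 ± 0.02, 1.89 ± 0.02 and 2.24 ± 0.02. In Parental cells with dimerizer 0 of the 15 were called by edgeR, with 3 under 0.05 before adjustment, and 0 by DESeq2 and by limma.

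Inflammatory genes with C/EBP sites were mixed: of 13 tested, 5 were higher and 5 lower with dimerizer in Dmr-PERK cells (median -0.17), 5 and 5 with thapsigargin (0.03), and 8 and 4 with arsenite (1.43). CXCL8, a neutrophil chemokine, changed by 2.91 ± 0.13, 4.81 ± 0.11 and 2.25 ± 0.13, and PTGS2, the inducible cyclooxygenase, by 2.62 ± 0.18, 4.26 ± 0.14 and 4.59 ± 0.13. PTX3, a pattern recognition molecule, rose by 1.98 ± 0.07 and 1.06 ± 0.08 with dimerizer and thapsigargin and fell by -3.04 ± 0.15 with arsenite. Of 11 genes of the gp130 and STAT3 pathway, which induces CEBPB and CEBPD, 5 were higher and 4 lower with dimerizer, 5 and 6 with thapsigargin, and 3 and 7 with arsenite. The list's median changes were 0.02, -0.13 and -0.31, beside medians of all genes of -0.03, 0.0 and 0.12. Its feedback inhibitor SOCS3 fell by -0.52 ± 0.06 with dimerizer and -0.86 ± 0.06 with thapsigargin and changed by -0.06 ± 0.06, not called, with arsenite, while the cytokine IL11 rose by 1.12 ± 0.04, 1.0 ± 0.04 and 2.69 ± 0.04. IL6ST, which encodes gp130, rose by 0.32 ± 0.03, 0.56 ± 0.03 and 0.26 ± 0.03. In Parental cells with dimerizer edgeR called 0 genes of either list, with 2 of the 13 and 3 of the 11 under 0.05 before adjustment, and DESeq2 and limma called 0.

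Of 6 tested relatives and neighbouring transcripts, 4 were higher and 1 lower with dimerizer in Dmr-PERK cells, 4 and 1 with thapsigargin, and 4 and 2 with arsenite. MARS, the methionyl-tRNA synthetase gene opposite DDIT3, had a median of 249.2 CPM in untreated (225.7 to 278.9) and 559.9 CPM in dimerizer wells (377.1 to 624.6) of Dmr-PERK cells from 4 to 24 h (n = 12), a change of 1.06 ± 0.02 against 3.15 for DDIT3. CEBPB-AS1 was at 2.28 ± 0.434 and 4.1 ± 0.664 CPM in the same wells (mean ± SD), a change of 0.85 ± 0.08, and MIR616 at 0.109 ± 0.0794 and 0.478 ± 0.176 CPM. The part of these overlaps in the members' values was not tested. CEBPZ, which shares the name but has no bZIP domain, changed by 0.29 ± 0.02, 0.22 ± 0.02 and -0.34 ± 0.02 with dimerizer, thapsigargin and arsenite. CEBPE, a granulocyte factor, was at most 0.0558 CPM on average in any line and treatment. CEBPA-AS1 changed by 2.00 ± 0.35 in Dmr-PERK and -0.88 ± 0.29 in Parental cells with arsenite, both called, and was not called with dimerizer in either line.

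Markers of other cell types were also called in places. Of 7 osteoblast and matrix markers tested, 2 were higher and 5 lower with dimerizer in Dmr-PERK cells, 1 and 4 with thapsigargin, and 5 and 2 with arsenite. SPARC, a matrix protein, fell by -0.67 ± 0.02, -0.94 ± 0.02 and -0.35 ± 0.02. Of 6 monocyte and granulocyte markers, 1 was higher and 2 lower with dimerizer, 0 and 3 with thapsigargin, and 5 and 0 with arsenite, where 83.6% of all genes were called (median change of the list 2.06, of all genes 0.12). Of 5 adipocyte markers, 1 was higher and 1 lower with dimerizer, 1 and 1 with thapsigargin, and 4 and 1 with arsenite, where PPARG, the partner of C/EBPα in fat cells, rose by 0.71 ± 0.03. Of 6 hepatocyte and epithelial markers, 0 were higher and 1 lower with dimerizer, 1 and 2 with thapsigargin, and 3 and 2 with arsenite. In Parental cells with dimerizer edgeR, DESeq2 and limma called 0 genes of these 4 lists, and edgeR gave 2, 2, 0 and 1 genes of them, in the order above, a p under 0.05 before adjustment. The part of these changes in the CEBPA result with arsenite was not tested.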

How the data were processed

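The data are RNA-seq of 120 wells in 40 groups of 3. Libraries were made with a directional kit, per the labels' protocols, and FastQC 0.11.5, Salmon 0.9.1 and GRCh38 are listed in the submitters' processing notes. The authors deposited estimated counts per gene (expected counts, of which 49.5% of non-zero values are whole within 1e-05) and TPM, whose lowest value in the deposited table is 0.063122. Other settings are not given in the sources used here. All columns matched a label, and 0 were left out.

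Estimated counts were rounded and fitted with edgeR 4.0.16 in R 4.3.3 over all 120 libraries (TMM scaling, filter by group at a minimum count of 10, quasi-likelihood, 80 residual and 12.7 prior degrees of freedom, Benjamini-Hochberg over 26998 genes). The procedure was tested on simulated data. Each treated group was set against the untreated group of its line and time (0 h for 2 h). Alternatives were RLE size factors, DESeq2 1.42.0, limma 3.58.1 on log2(TPM + 1) and log2(TPM + 0.1), no filter, a replicate block, 1 line at a time, untreated wells at 4 h for 2 h, and leaving out each replicate. Leaving out 5 libraries that stood apart (mean r over 3 interquartile ranges below the lower quartile, and only the lowest where a whole group did) was chosen after seeing the data. Counts limit the precision of CEBPA and CEBPD.

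The 5 genes were always named, then from each list 3 genes, those of lowest adjusted p in Dmr-PERK cells with dimerizer, and for each member the 4 genes with the highest r among those of at least 5 CPM in their highest group and a symbol of their own. Not every gene this allows is printed. Genes in GENCODE 29 that overlap the members, and CEBPE and CEBPZ, were added for their position or name. Members and lists were chosen with earlier results of these data known.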

Additional observations from a re-analysis of the deposited data

Results flagged for a closer look

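The treatment effects of several of the 5 genes differed between the lines by a test of the difference itself (mean of 4 to 24 h, Dmr-PERK minus Parental, log2). Of all genes the same test called 47.0% with dimerizer, 25.7% with thapsigargin and 42.2% with arsenite. With dimerizer the difference was 3.24 for DDIT3, 1.83 for CEBPB and 1.85 for CEBPG. With thapsigargin it was 0.36 for CEBPB, 0.54 for CEBPD and 0.09 for CEBPG. With arsenite it was -0.32 for CEBPD and 0.15 for CEBPG, and the CEBPD call was lost without the libraries that stood apart and whichever replicate was left out of every group. The CEBPG calls were lost without replicate 1 (0.042 with thapsigargin and 0.078 with arsenite), and that with thapsigargin also without replicate 2 (0.102) and without the libraries that stood apart (0.067).

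Effects also differed between times by an F-test over 4, 8, 16 and 24 h. In Dmr-PERK cells this test called 42.1%, 52.2% and 71.2% of all genes with dimerizer, thapsigargin and arsenite. In Parental cells it called 49.9% with thapsigargin and 73.1% with arsenite. For each member the distance from the lowest to the highest of these times is given in log2 units. With dimerizer in Dmr-PERK cells it was 0.61 for CEBPB, 0.93 for CEBPD and 0.38 for CEBPG. With thapsigargin in Dmr-PERK cells it was 1.63 for DDIT3, 0.81 for CEBPA, 0.74 for CEBPB, 1.69 for CEBPD and 0.67 for CEBPG. With arsenite in Dmr-PERK cells it was 1.64 for CEBPA, 1.35 for CEBPB, 1.8 for CEBPD and 0.79 for CEBPG. With thapsigargin in Parental cells it was 1.0 for DDIT3, 0.47 for CEBPB and 0.46 for CEBPG. With arsenite in Parental cells it was 1.54 for DDIT3, 2.53 for CEBPA, 1.73 for CEBPB, 2.91 for CEBPD and 0.84 for CEBPG. The CEBPD distance with dimerizer runs from 4 h, whose call was lost on log2(TPM + 0.1), to 24 h. The 24 h call was lost whichever replicate was left out of every group.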

How the results depend on the processing

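Over all alternatives, 2269 recomputed log2 changes of the 5 genes kept their direction and their side of the threshold, 26 gained a call, 61 lost it and 70 changed sign, and 545 counts of called members stayed within 1.5 times the reported count while 21 did not. The cause was not tested. CEBPA and CEBPD, with as few as 14 and 15 estimated counts in a library, are limited by depth. The labels do not say that replicate numbers mark shared cultures. In 1 of 30 comparisons every same-number pair correlated over 0.1, and in 4 of 30 every library matched its own number best. With the replicate block 271 results kept their call, and CEBPG in Parental cells with dimerizer at 4 h went from -0.0 to 0.001. DESeq2 was not run for F-tests. Leaving out libraries that stood apart was chosen after seeing the data.

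Counts of called members moved in few comparisons. With dimerizer in Parental cells at 2 h the count went from 0 to 1 with DESeq2 and without the libraries that stood apart, and to 2 against untreated wells at 4 h. At 4 h it went from 1 to 2 with DESeq2 and on both TPM scales, and leaving out each replicate gave 0 to 1. Over 4 to 24 h it went from 0 to 1 with DESeq2, with only the libraries of the line and without the libraries that stood apart. For change over time it went from 0 to 1 on both TPM scales. For the line difference with arsenite it went from 2 to 1 without a filter and without the libraries that stood apart, and leaving out each replicate gave 0 to 1. For thapsigargin against arsenite in Parental cells it went from 5 to 3 with DESeq2 and RLE size factors, and leaving out each replicate gave 3 to 5.

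Sign changes concerned values near 0 or CEBPA and CEBPD. Against untreated wells at 4 h, the 2 h value of CEBPA in Dmr-PERK cells became -0.046 (dimerizer), -0.272 (thapsigargin) and -0.527 (arsenite), and 0.099 with arsenite in Parental cells. For CEBPD with dimerizer in Dmr-PERK cells over 4 to 24 h, DESeq2 gave -0.004, RLE size factors -0.001 and log2(TPM + 1) -0.01. CEBPD with dimerizer in Parental cells at 2 h became 0.026 with DESeq2, 0.007 with RLE size factors, 0.021 without a filter, 0.003 with only the libraries of the line, 0.011 without the libraries that stood apart, and 0.021 and 0.023 on the TPM scales with pseudocounts 1 and 0.1. On those scales CEBPA with arsenite in Dmr-PERK cells at 8 h became -0.078 and -0.147, CEBPG with dimerizer in Parental cells 0.021 and 0.022 at 4 h and 0.002 and 0.003 over 4 to 24 h, and CEBPD with thapsigargin in Parental cells at 2 h 0.012 and 0.013. CEBPD with arsenite in Parental cells at 24 h became -0.175 and -0.221. For dimerizer against arsenite CEBPA became 0.055 and 0.098, and CEBPG 0.102 and 0.106. CEBPA with arsenite in Parental cells over 4 to 24 h became -0.03 at pseudocount 0.1.

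For thapsigargin against arsenite, DESeq2 and RLE size factors gave -0.001 and -0.001 for DDIT3, -0.063 and -0.064 for CEBPB, and -0.043 and -0.043 for CEBPG in Dmr-PERK cells. In Parental cells they gave -0.012 and -0.012 for DDIT3 and -0.035 and -0.035 for CEBPG. With only the libraries of the line, CEBPG with dimerizer in Parental cells at 4 h was 0.001. Without the libraries that stood apart, CEBPG with dimerizer in Parental cells over 4 to 24 h was 0.0 and CEBPA between untreated lines 0.012. By CPM in place of TPM the DDIT3 share over 4 to 24 h with dimerizer, thapsigargin and arsenite was 22.7, 44.8 and 47.8% in Dmr-PERK and 5.58, 33.5 and 33.4% in Parental cells. Of the 4 genes most like DDIT3, CEBPA, CEBPB, CEBPD and CEBPG, 1, 0, 2, 1 and 4 were also among the 4 highest by Spearman's rho.

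Leaving out each replicate in turn gave ranges across 0 for these values. With dimerizer in Dmr-PERK cells CEBPD ranged from -0.025 to 0.318 at 8 h, -0.168 to 0.117 at 16 h and -0.032 to 0.071 over 4 to 24 h, and CEBPA from -0.06 to 0.213 at 24 h. With the other treatments CEBPA ranged from -0.319 to 0.05 (thapsigargin, 24 h), -0.068 to 0.299 (arsenite, 2 h) and -0.134 to 0.183 (arsenite, 8 h). With dimerizer in Parental cells CEBPD ranged from -0.051 to 0.05 at 2 h and -0.113 to 0.034 at 4 h. CEBPG ranged from -0.064 to 0.078 at 4 h and -0.019 to 0.026 over 4 to 24 h. At 8 h DDIT3 ranged from -0.123 to 0.008, CEBPA from -0.246 to 0.111 and CEBPB from -0.058 to 0.019, and at 24 h CEBPA from -0.051 to 0.262. With thapsigargin in Parental cells CEBPD ranged from -0.12 to 0.01 at 2 h, and CEBPA from -0.134 to 0.192 at 4 h and -0.149 to 0.027 over 4 to 24 h. With arsenite there CEBPA ranged from -0.116 to 0.007 at 2 h. Between lines CEBPA ranged from -0.033 to 0.101 (dimerizer), -0.194 to 0.121 (thapsigargin) and -0.115 to 0.033 (untreated), and CEBPB from -0.043 to 0.089 with arsenite.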
